A study of Homo sapiens with 6 samples.

Results

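The genes described are 42 of the 20263 in the deposited expression table: those of nucleotide excision repair (18 genes), base excision repair (16), mismatch repair (5) and direct reversal of alkylated bases (3). They were taken by symbol from a list drawn up by pathway, and all 42 had 1 row each. The cells are HCT116, a long-established colorectal cancer line of human origin that is widely used as a mismatch repair deficient model. By their treatment labels, 3 libraries are WT, a term the labels do not spell out, and 3 were treated with CSE, which is read here as cigarette smoke extract because the series title names smoking. No label states a dose, a duration or what the WT cells received, and all 6 libraries come from 1 line.

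Damaged bases leave the genome by several routes. Nucleotide excision repair removes bulky adducts, such as those that polycyclic aromatic hydrocarbons of tobacco smoke form, by cutting out a short single-stranded patch. Base excision repair removes small oxidised, deaminated or alkylated bases with a glycosylase, cuts the resulting abasic site and fills the gap. Mismatch repair corrects copying errors behind the replication fork, and the direct reversal enzymes strip alkyl groups off a base without cutting the strand.

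Values are TPM, a length-corrected share of all transcripts in a library scaled to a fixed total, so levels can be compared between genes but the sequencing depth is unknown. Mitochondrially encoded genes held 27.0% to 30.2% of the WT libraries and 25.5% to 25.8% of the CSE libraries. Of 10 colorectal epithelial markers, EPCAM, CDH1, KRT8, KRT18, KRT19 and CDX2 were expressed, CDX1 was listed at 0 in every library, and VIL1, CEACAM5 and LGALS4 stayed under 1 TPM. The summed level of the 10 was 5082 to 5315 TPM in WT and 5307 to 5613 in CSE. Of 11 markers of blood, stroma, vessel, glia, liver and red cells, CD68 and COL1A1 passed the filter, and both were lower in CSE. CD68 averaged 17.6 TPM in WT and 12.1 in CSE, and COL1A1 averaged 43.8 and 37.3. DCN was listed at 0 throughout, and HBB reached 2.45 and 1.91 TPM in CSE replicates 2 and 3 against at most 0.29 elsewhere. These 11 summed to 61.7 to 64.0 TPM in WT and 51.6 to 53.1 in CSE, and their part in the results was not tested.

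All 42 genes passed the filter, which asked for 1 TPM or more in 3 or more libraries. In WT, the lowest mean was that of the nuclease gene ERCC5 (1.46 TPM) and the highest that of the abasic endonuclease gene APEX1 (252 TPM), with a median of 26.0. CSE was compared with WT by limma on log2(TPM + 1), with Benjamini-Hochberg adjustment over all 12793 genes tested and a threshold of 0.05. Every log2 change below is CSE minus WT on that scale. Of the 42 genes, 19 were called (45.2%), 9 higher and 10 lower in CSE. Over all genes tested, 50.1% were called, 24.5% higher and 25.6% lower, so the share called was close to the background. The median log2 change was -0.002 for the 42 genes and -0.0039 for all genes. WT and CSE values were fully separate for 22 of the 42 genes (9 higher, 13 lower), against 57.4% of all genes tested.

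The changes were small. Called log2 changes ran from -0.40 (UVSSA) to 0.54 (APEX1). Tested against a change of 1.2-fold instead of none, APEX1 and NEIL3 passed (2 genes, both higher). Of the 23 genes not called, 21 had a 95% interval that stayed within a 1.2-fold change of TPM + 1 either way. The split by direction depended on scaling: 47.4% of the called repair genes were higher in the TPM as deposited, and 30.4% (7 higher, 16 lower) once mitochondrial transcripts were removed and the columns rescaled, with the median of all genes then at -0.059. All called genes moved alike, from 48.9% higher to 34.1%, so the shift was close to the background. Under that scaling XPC and MPG were no longer called higher, and ERCC8, ERCC2, GTF2H1, GTF2H4, OGG1 and NEIL2 were called lower. The 12 genes CETN2, UVSSA, GTF2H2, ERCC4, NEIL3, UNG, TDG, APEX1, PARP1, XRCC1, MSH6 and MGMT kept their call and direction in all 15 alternatives tested against no change. The other 7 (XPC, ERCC6, MPG, PARP2, PMS1, PMS2, ALKBH3) lost it in at least 1.

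**Figure D1:**
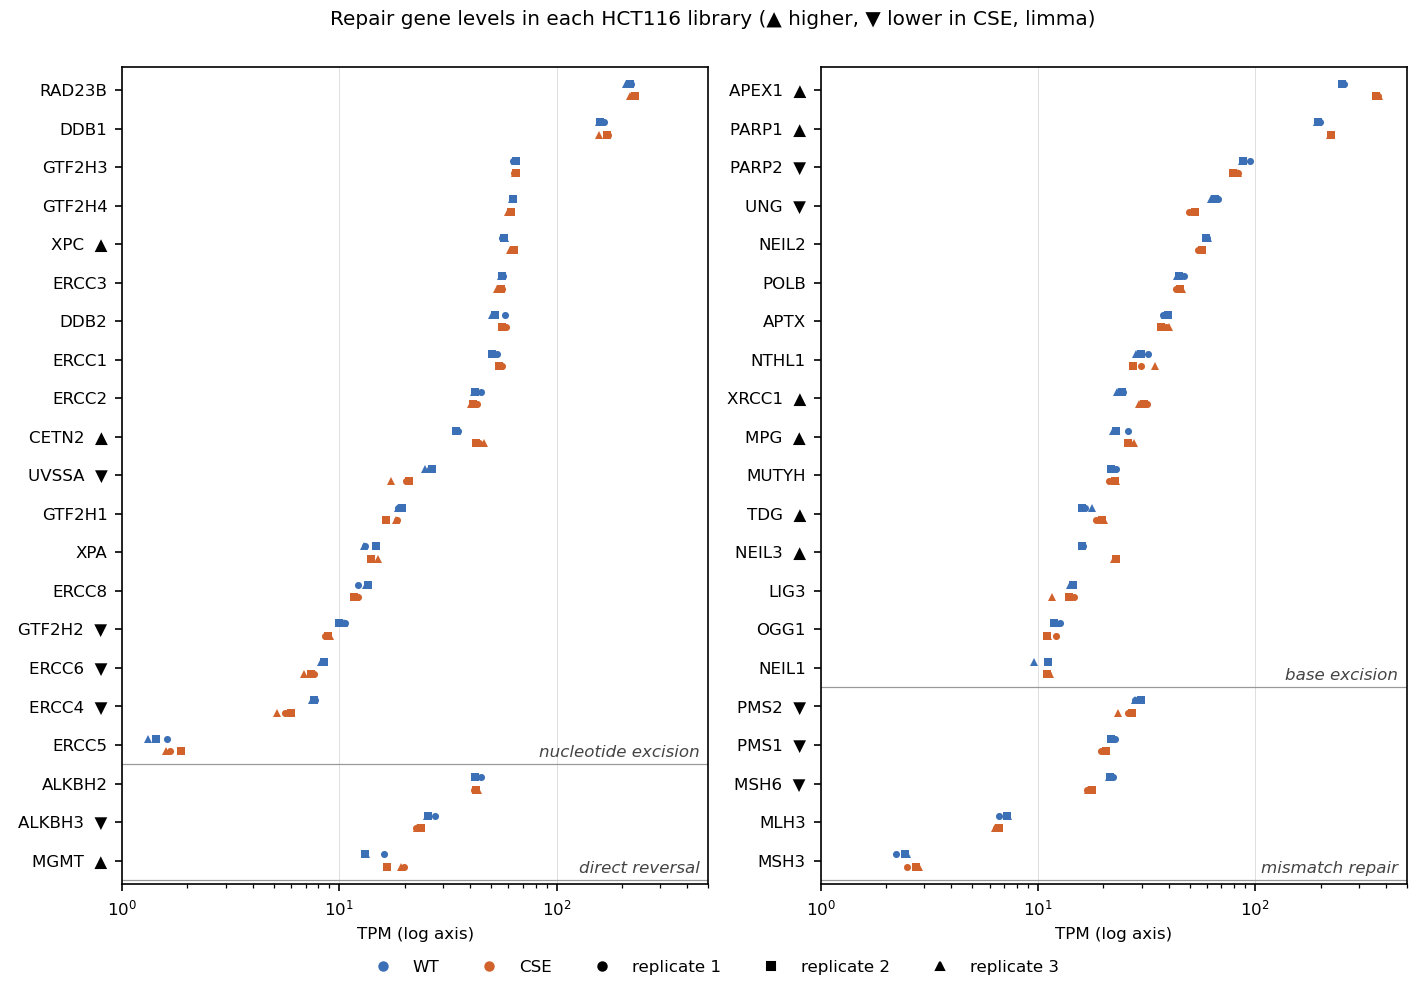
TPM of the 42 repair genes (rows, log axis) in each of the 3 WT and 3 CSE libraries, by pathway, ordered by WT mean. Triangles after a name mark the 9 genes called higher and the 10 called lower, and APEX1 is the most abundant gene of the set, at 252 TPM in WT and 366 in CSE.

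In nucleotide excision repair, 2 of 18 genes were higher, 4 were lower and 12 were not called (median log2 change -0.011). The share called was 33.3%, against 50.1% of all genes tested. Damage in the genome at large is found by XPC, which binds the distorted helix together with RAD23B and the small calcium-binding protein centrin 2 (CETN2), and by the DDB1-DDB2 complex. CETN2 (ENSG00000147400, chromosome X, 152826973 to 152830777, minus strand of GRCh38) stood at 35.27, 34.57 and 34.94 TPM in the WT libraries and at 43.90, 42.40 and 46.11 in the CSE libraries. Every CSE value lay above every WT value, a 1.26-fold rise (log2 change 0.33 ± 0.047 SE, adjusted p = 5.46e-06 by limma). Centrin 2 is also a centriole protein. XPC itself rose from 57.1 ± 0.811 to 62.7 ± 1.59 TPM (SD, n = 3 each; log2 change 0.13, adjusted p = 0.0129 by limma). Its call was lost without CSE replicate 1 (adjusted p = 0.0689 by limma), without CSE replicate 2 (0.0564) and with mitochondrially encoded genes left out (0.12).

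The other 3 genes of this recognition step were not called. RAD23B, the stabilising partner of XPC, was at 215 ± 6.47 TPM (WT) and 225 ± 6.57 TPM (CSE) (log2 change 0.065, adjusted p = 0.168 by limma). DDB1 was at 160.1 ± 4.18 TPM (WT) and 167 ± 8.17 TPM (CSE) (log2 change 0.058, adjusted p = 0.261 by limma), and DDB2, the subunit that binds the lesion, at 53.4 ± 3.80 TPM (WT) and 57.0 ± 1.204 TPM (CSE) (log2 change 0.096, adjusted p = 0.11 by limma). Their changes turned on the scaling: with mitochondrially encoded genes left out the log2 change was 0.0078 for RAD23B, -8.67e-05 for DDB1 and 0.039 for DDB2, and under quantile normalization it was 0.00049, -0.0047 and 0.083. Without CSE replicate 3, DDB1 (adjusted p = 0.0303 by limma) and RAD23B (0.0475) passed as higher, as did DDB2 without WT replicate 1 (0.0135), and median-of-ratios scaling called RAD23B (0.0455) and DDB2 (0.0492).

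Transcription-coupled repair starts at a stalled RNA polymerase, where ERCC6 (CSB) and ERCC8 (CSA) gather and UVSSA brings in the helicase complex TFIIH. Of these 3 genes, 2 were lower. UVSSA (ENSG00000163945, chromosome 4, 1347266 to 1395992, plus strand) showed the largest fall of the 42 genes on the log2(TPM + 1) scale. It stood at 26.17, 26.67 and 24.92 TPM in the WT libraries and at 20.28, 20.82 and 17.22 in the CSE libraries. The groups did not overlap, CSE replicate 3 was the lowest, and the level was 1.33-fold lower (log2 change -0.40 ± 0.062 SE, adjusted p = 1.46e-05 by limma). ERCC6 fell from 8.39 ± 0.13 to 7.31 ± 0.398 TPM (log2 change -0.18, adjusted p = 0.0304 by limma). The ERCC6 call did not hold without any single WT library, without CSE replicate 2 or without CSE replicate 3 (adjusted p 0.0511 to 0.0922 by limma), nor without the filter (0.0573). ERCC8 was at 13.0 ± 0.686 TPM (WT) and 11.9 ± 0.291 TPM (CSE) and was not called (log2 change -0.11, 95% interval -0.24 to 0.011).

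TFIIH opens the helix with its helicases ERCC2 (XPD) and ERCC3 (XPB), and XPA checks the lesion. Of the 7 genes of this step, 1 was lower and 6 were not called. GTF2H2, the p44 subunit that stimulates ERCC2 (ENSG00000145736, chromosome 5, 71032670 to 71067689, minus strand), stood at 10.58, 10.02 and 10.54 TPM in the WT libraries and at 8.61, 8.86 and 9.06 in the CSE libraries. The groups did not overlap (1.17-fold lower, log2 change -0.21 ± 0.062 SE, adjusted p = 0.00763 by limma). GTF2H2 has near-identical copies that can exchange reads, so its value as a single gene is uncertain. The copy GTF2H2C stood at 7.64, 7.66 and 7.90 TPM in the WT libraries and at 8.42, 7.37 and 7.44 in the CSE libraries, with overlapping groups (adjusted p = 0.998 by limma).

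The remaining TFIIH genes and XPA were not called. ERCC3 was at 56.0 ± 0.726 TPM (WT) and 54.9 ± 1.37 TPM (CSE), with a log2 change of -0.029 (95% interval -0.12 to 0.060). The log2 change was -0.045 for ERCC2, -0.096 for GTF2H1, 0.0065 for GTF2H3 and -0.041 for GTF2H4. XPA was at 13.7 ± 0.971 TPM (WT) and 14.3 ± 0.673 TPM (CSE) (log2 change 0.065, 95% interval -0.063 to 0.19).

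The damaged patch is released by a pair of nucleases, ERCC1-ERCC4 on the 5′ side and ERCC5 (XPG) on the 3′ side. ERCC4, the catalytic subunit also called XPF (ENSG00000175595, chromosome 16, 13920157 to 13952345, plus strand), stood at 7.69, 7.66 and 7.46 TPM in the WT libraries and at 5.64, 6.02 and 5.19 in the CSE libraries. The groups did not overlap and the level was 1.35-fold lower (log2 change -0.38 ± 0.070 SE, adjusted p = 0.00013 by limma). ERCC1, its obligate partner, was at 51.5 ± 1.42 TPM (WT) and 55.2 ± 0.892 TPM (CSE) and was not called (log2 change 0.099, adjusted p = 0.0621 by limma). ERCC1 passed as higher without WT replicate 1 (adjusted p = 0.0374 by limma), without CSE replicate 3 (0.0491) and under median-of-ratios scaling (0.0215). ERCC5 was near the filter, at 1.46 ± 0.146 TPM (WT) and 1.71 ± 0.135 TPM (CSE), and was not called (log2 change 0.14, 95% interval -0.059 to 0.34). The readthrough gene BIVM-ERCC5, which shares its exons, was listed at 0 in every library. How reads of the shared exons were assigned is not stated, so the low ERCC5 value as a single gene is uncertain.

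**Figure D2:**
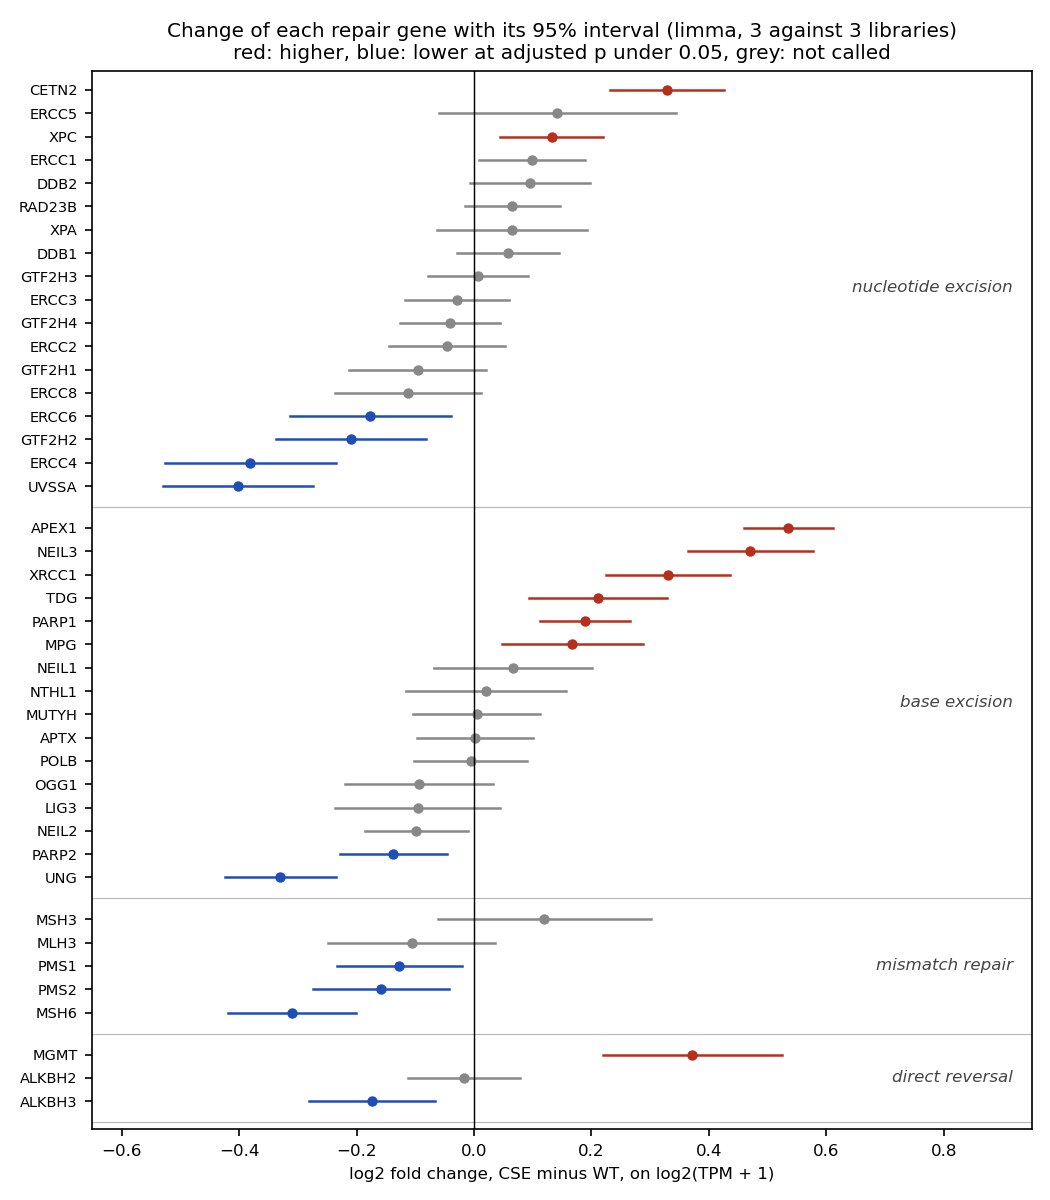
Log2 change of each of the 42 repair genes, CSE minus WT on log2(TPM + 1), with its 95% limma interval, ordered within each pathway. Base excision repair holds the 2 largest rises, APEX1 (0.54) and NEIL3 (0.47). In mismatch repair 3 of 5 genes were called, all lower, and the calls of PMS1 and PMS2 were lost in some alternatives. Of all genes tested, 50.1% were called, 25.6% of them all as lower.

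In base excision repair, 6 of 16 genes were higher, 2 were lower and 8 were not called (median log2 change 0.012). The share called was 50%, against 50.1% of all genes tested. The 16 genes summed to 939.9, 910.0 and 901 TPM in WT and 1049, 1038 and 1064 in CSE. APEX1 made up most of that difference: without it the sums were 684, 659.7 and 651 TPM in WT and 682, 679.9 and 692 in CSE, and the groups overlapped. APEX1 (ENSG00000100823, chromosome 14, 20455191 to 20457772, plus strand) encodes the main abasic site endonuclease, which also reduces transcription factors such as AP-1. It stood at 255.88, 250.32 and 250.35 TPM in the WT libraries and at 366.95, 358.26 and 372.58 in the CSE libraries. Each CSE value exceeded each WT value by over 100 TPM, and the level rose 1.45-fold (log2 change 0.54 ± 0.036 SE, adjusted p = 1.11e-10 by limma, 95% interval 0.46 to 0.61).

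APEX1, NEIL3 and XRCC1 had the 3 largest rises in base excision repair, and the 250 bases before the RefSeq start of each are shown for that reason. The sequences are from RefSeq (GRCh38.p14), 5′ to 3′ on the gene's own strand. Capitals mark the CCAAT box (CCAAT) in all 3, the E-box (CACGTG) in APEX1, and the CHR element (TTTGAA or TTCGAA), known from promoters of G2/M genes, in NEIL3 and XRCC1, searched on both strands. The APEX1 window is chr14:20454976-20455225 (plus strand), the NEIL3 window chr4:177309624-177309873 (plus strand) and the XRCC1 window chr19:43575528-43575777 (minus strand). The most upstream RefSeq starts used are 20455226 (APEX1), 177309874 (NEIL3) and 43575527 (XRCC1). All 3 lie inside the GENCODE 29 spans printed for these genes. The windows of APEX1 and NEIL3 thus lie partly, and that of XRCC1 wholly, within the annotated gene.
APEX1: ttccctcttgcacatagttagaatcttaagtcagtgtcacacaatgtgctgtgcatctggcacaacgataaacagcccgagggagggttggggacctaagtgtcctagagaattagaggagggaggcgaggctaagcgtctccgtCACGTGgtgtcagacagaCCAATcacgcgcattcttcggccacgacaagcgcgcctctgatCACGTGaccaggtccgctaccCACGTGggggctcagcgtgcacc
NEIL3: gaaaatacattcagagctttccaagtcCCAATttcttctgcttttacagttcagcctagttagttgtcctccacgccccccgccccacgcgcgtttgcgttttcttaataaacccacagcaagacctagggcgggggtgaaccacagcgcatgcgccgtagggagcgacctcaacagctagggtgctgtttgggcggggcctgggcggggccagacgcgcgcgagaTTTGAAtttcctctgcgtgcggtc
XRCC1: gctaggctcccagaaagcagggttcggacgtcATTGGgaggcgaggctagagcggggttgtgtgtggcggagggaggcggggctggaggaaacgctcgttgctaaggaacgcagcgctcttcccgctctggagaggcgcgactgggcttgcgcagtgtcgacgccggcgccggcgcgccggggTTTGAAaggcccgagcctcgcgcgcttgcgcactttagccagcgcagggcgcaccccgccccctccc

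The APEX1 window held 3 E-boxes, the nearest 18 to 23 bases before the RefSeq start, and a CCAAT box 83 to 87 bases before it. That nearest E-box lies inside the GENCODE 29 span of APEX1. Of 10302 tested genes with a window of this length, 908 (8.81%) held an E-box and 16 (0.155%) held 3 or more. Among the repair genes, 7 of 40 (17.5%) held an E-box. These were 3 of 9 called higher, 1 of 10 called lower and 3 of 21 not called. The CHR letters lay 19 to 24 bases before the RefSeq start of NEIL3 and 62 to 67 before that of XRCC1. Both matches lie inside the GENCODE 29 spans of these genes. Of all windows, 9.27% held the CHR letters. Among the 40 repair genes with a window, ERCC6 was the only other one with a CHR match (3 of 40, 7.5%). CCAAT was found in 6 of 9 windows of genes called higher, 5 of 10 of genes called lower and 8 of 21 of genes not called, against 35.3% of all windows. GCGTG, the core letters bound by the aryl hydrocarbon receptor, occurred in 6 of 9, 7 of 10 and 9 of 21 windows, against 45.6% of all. The antioxidant response core TGACNNNGC occurred in 5 of 40 (12.5%), against 12.2% of all. The E2F letters TTTCGCGC, TTTGGCGC, TTTCCCGC or TTTGCCGC were in 3 of 40 (MSH3, PMS2, XPC), against 4.55% of all. A match is a description of letters and not a bound site.

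Glycosylases start the pathway, each with its own set of bases. Of the 9, 3 were higher and 1 lower. NEIL3 acts on oxidised bases in single-stranded DNA and on crosslinks at replication forks (ENSG00000109674, chromosome 4, 177309836 to 177362943, plus strand). It stood at 16.15, 16.03 and 16.01 TPM in the WT libraries and at 22.61, 22.84 and 22.46 in the CSE libraries. The libraries of a group were nearly equal and the groups far apart, a 1.41-fold rise (log2 change 0.47 ± 0.051 SE, adjusted p = 1.5e-07 by limma). NEIL3 is known as a gene of proliferating cells. All 18 genes of a G2/M list were also called higher (median log2 change 0.61), against 24.5% of all genes tested. Their summed level was 1500.1 to 1554 TPM in WT and 2317 to 2336 in CSE. The part of cell cycle position in the NEIL3 value was not tested.

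UNG, which excises uracil (ENSG00000076248, chromosome 12, 109097574 to 109110992, plus strand), moved the other way. It stood at 67.76, 65.35 and 62.50 TPM in the WT libraries and at 49.54, 52.65 and 52.85 in the CSE libraries. All CSE values lay under all WT values, 1.26-fold lower (log2 change -0.33 ± 0.046 SE, adjusted p = 3.79e-06 by limma). UNG is known to peak around S phase. In a list of 19 S phase and G1/S genes, 6 were higher and 9 lower (median -0.12), against 24.5% and 25.6% of all genes tested. They ran from E2F1 at -0.59 to RRM2 at 0.57 on the log2 scale. The part of cell cycle position in the UNG value was not tested.

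TDG, which removes thymine from G:T pairs and takes part in DNA demethylation (ENSG00000139372, chromosome 12, 103965804 to 103988874, plus strand), stood at 16.45, 16.03 and 17.72 TPM in the WT libraries and at 18.61, 19.80 and 20.17 in the CSE libraries. The groups did not overlap (1.17-fold higher, log2 change 0.21 ± 0.057 SE, adjusted p = 0.00371 by limma). MPG, the glycosylase for alkylated purines, was called higher with overlapping groups, from 23.7 ± 2.12 to 26.7 ± 0.835 TPM (log2 change 0.17, adjusted p = 0.0202 by limma). The MPG call was lost without WT replicate 2 (adjusted p = 0.0862 by limma), WT replicate 3 (0.125) or CSE replicate 3 (0.0632). It was also lost without the filter (0.0748), without the variance trend (0.0548) and with mitochondrially encoded genes left out (0.0864).

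The 5 glycosylases of oxidised bases and their mispairs other than NEIL3 were not called. OGG1, which excises 8-oxoguanine, was at 12.2 ± 0.435 TPM (WT) and 11.4 ± 0.594 TPM (CSE) (log2 change -0.094, 95% interval -0.22 to 0.033). MUTYH, which removes adenine paired with 8-oxoguanine, was at 22.2 ± 0.585 TPM (WT) and 22.2 ± 0.856 TPM (CSE) (95% interval -0.10 to 0.11). NTHL1 and NEIL1, which act on oxidised pyrimidines, had log2 changes of 0.020 and 0.067. NEIL2, a relative of NEIL1, was at 60.2 ± 0.526 TPM (WT) and 56.1 ± 1.16 TPM (CSE) (log2 change -0.098, adjusted p = 0.0572 by limma). NEIL2 passed as lower without CSE replicate 3 (adjusted p = 0.0326 by limma), without the filter (0.0379), under quantile normalization (0.0225) and without mitochondrially encoded genes (0.00309).

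Downstream of the cut, XRCC1 is the scaffold that holds the ligase LIG3, the polymerase POLB and the end-processing enzyme APTX. XRCC1 (ENSG00000073050, chromosome 19, 43543040 to 43580473, minus strand) stood at 24.77, 24.48 and 23.19 TPM in the WT libraries and at 31.72, 30.82 and 29.28 in the CSE libraries. The groups did not overlap, a 1.27-fold rise (log2 change 0.33 ± 0.051 SE, adjusted p = 1.55e-05 by limma). The genes of the 3 proteins it holds were not called. LIG3 was at 14.3 ± 0.164 TPM (WT) and 13.4 ± 1.53 TPM (CSE) (95% interval -0.24 to 0.045 on the log2 scale). POLB was at 45.1 ± 1.74 TPM (WT) and 44.9 ± 1.32 TPM (CSE) (95% interval -0.10 to 0.090), and APTX at 38.6 ± 0.919 TPM (WT) and 38.7 ± 1.69 TPM (CSE) (95% interval -0.097 to 0.10).

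PARP1 and PARP2 bind broken strands and mark them with poly(ADP-ribose). PARP1, the more abundant of the pair, rose from 196 ± 3.38 to 223 ± 1.34 TPM (log2 change 0.19 ± 0.037 SE, adjusted p = 0.000204 by limma). PARP2 fell from 90.0 ± 4.46 to 81.7 ± 2.25 TPM (log2 change -0.14 ± 0.044 SE, adjusted p = 0.0129 by limma). The PARP2 call was lost without WT replicate 1 (adjusted p = 0.0734 by limma), without CSE replicate 2 (0.0656) and without the variance trend (0.0523).

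In mismatch repair, 0 of 5 genes were higher, 3 were lower and 2 were not called (median log2 change -0.13). The share called was 60%, against 50.1% of all genes tested (24.5% higher, 25.6% lower). The 5 genes summed to 81.6, 82.7 and 80.9 TPM in WT and 71.4, 74.9 and 70.0 in CSE, and the groups did not overlap. MSH6 binds base mismatches and single-base loops (ENSG00000116062, chromosome 2, 47695530 to 47810101, plus strand). It stood at 22.16, 21.50 and 21.20 TPM in the WT libraries and at 16.92, 17.75 and 17.09 in the CSE libraries. Every CSE value was under every WT value (log2 change -0.31 ± 0.052 SE, adjusted p = 4.63e-05 by limma). MSH3, its counterpart for larger loops, was far less abundant, at 2.40 ± 0.155 TPM (WT) and 2.69 ± 0.180 TPM (CSE), and was not called (log2 change 0.12, 95% interval -0.062 to 0.30).

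The MutL genes PMS1 and PMS2 were lower by less. PMS2, the endonuclease subunit (ENSG00000122512, chromosome 7, 5973239 to 6009125, minus strand), stood at 27.92, 29.87 and 27.89 TPM in the WT libraries and at 25.98, 27.18 and 23.42 in the CSE libraries (log2 change -0.16 ± 0.056 SE, adjusted p = 0.0229 by limma). PMS1 (ENSG00000064933, chromosome 2, 189784085 to 189877629, plus strand) stood at 22.66, 21.71 and 22.03 TPM in the WT libraries and at 19.62, 20.60 and 20.32 in the CSE libraries (log2 change -0.13 ± 0.051 SE, adjusted p = 0.0436 by limma). In both genes the groups were close but did not overlap. PMS2 has many pseudogene copies, so its value as a single gene is uncertain. The PMS2 call was lost without WT replicate 2 (adjusted p = 0.122 by limma), without CSE replicate 3 (0.085), without the filter (0.0733) and without the variance trend (0.0573). The PMS1 call was lost without any 1 library other than CSE replicate 3 (adjusted p 0.0611 to 0.182 by limma). MLH3, the least abundant of the 3 MutL genes, was at 7.04 ± 0.374 TPM (WT) and 6.46 ± 0.167 TPM (CSE) and was not called (log2 change -0.11, adjusted p = 0.207 by limma).

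Of the 3 direct reversal genes, 1 was higher, 1 lower and 1 not called (66.7% called, against 50.1% of all genes tested). MGMT takes the alkyl group off O6-alkylguanine onto itself and is used up in doing so (ENSG00000170430, chromosome 10, 129467184 to 129768007, plus strand). It stood at 16.10, 13.08 and 13.20 TPM in the WT libraries and at 19.81, 16.58 and 19.24 in the CSE libraries. WT replicate 1 came close to CSE replicate 2, but the groups did not overlap, and the level was 1.31-fold higher (log2 change 0.37 ± 0.074 SE, adjusted p = 0.000257 by limma).

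ALKBH3, a dioxygenase that demethylates single-stranded DNA and RNA (ENSG00000166199, chromosome 11, 43880811 to 43920266, plus strand), stood at 27.47, 25.55 and 25.31 TPM in the WT libraries and at 22.56, 23.82 and 22.70 in the CSE libraries. The groups did not overlap (1.13-fold lower, log2 change -0.17 ± 0.052 SE, adjusted p = 0.00819 by limma), and the call was lost without WT replicate 1 (log2 change -0.14, adjusted p = 0.0511 by limma). ALKBH2, which works on double-stranded DNA (ENSG00000189046, chromosome 12, 109088188 to 109093631, minus strand), stood at 44.87, 42.31 and 42.23 TPM in the WT libraries and at 41.52, 42.78 and 43.53 in the CSE libraries, with overlapping groups (log2 change -0.017, 95% interval -0.11 to 0.078).

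Several repair proteins work as partners, and the TPM ratio of 2 genes in the same library is not changed by a scaling factor common to all genes of that library, though quantile normalization can change it. The 13 pairs compared were chosen after their values were seen. The ratio was higher in every CSE than in every WT library for 5 pairs, lower for 3 and overlapping for 5. An exact permutation test of 3 against 3 libraries cannot give a two-sided p under 0.1, so the ratios are given as values. ERCC1 to ERCC4 was 6.90, 6.56 and 6.85 in WT and 9.95, 9.02 and 10.6 in CSE. XRCC1 to LIG3 was 1.72, 1.70 and 1.64 in WT and 2.17, 2.22 and 2.51 in CSE. CSE replicate 3 was highest in both pairs. APEX1 to APEX2, the minor abasic endonuclease gene, was 4.65, 4.92 and 5.14 in WT and 9.37, 9.15 and 9.27 in CSE. This pair moved furthest, since APEX2 itself fell (log2 change -0.37, adjusted p = 1.67e-06 by limma). PARP1 to PARP2 and ALKBH2 to ALKBH3 were the other 2 pairs with a higher ratio in CSE.

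The ratio of MSH6 to MSH3 was 9.98, 8.74 and 8.45 in WT and 6.80, 6.48 and 6.02 in CSE, lower in each CSE library. UVSSA to USP7, the deubiquitinase that stabilises ERCC6 with it, was 0.358, 0.370 and 0.351 in WT and 0.283, 0.295 and 0.245 in CSE, and XPC to CETN2 was the third lower ratio. DDB1 to DDB2, XPC to RAD23B, ERCC6 to ERCC8, ERCC2 to ERCC3 and PMS2 to PMS1 overlapped between the groups.

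**Figure D3:**
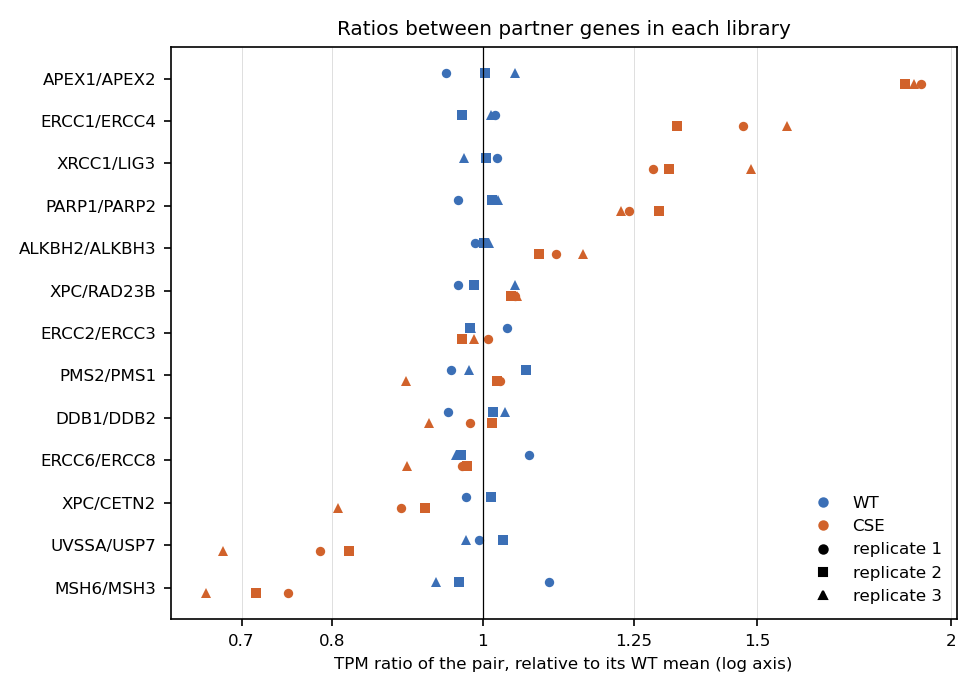
TPM ratio of 13 pairs of partner genes in each library, divided by the WT mean of the pair (log axis), with colour for group and shape for replicate number. APEX1/APEX2 averaged 1.89 times its WT mean in CSE, and MSH6/MSH3 at 0.71 of it.

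Repair genes often lie head to head with another gene, and their neighbours were looked up after the values had been seen. With start sites from GENCODE 29 (GRCh38), 15 of the 42 genes had a gene of the table starting within 1000 bases on the opposite strand, 8 of them divergent and 7 with overlapping 5′ ends. Of the 15 neighbours, 8 were called, against 50.1% of all genes tested, so the share was close to the background. In 3 pairs both genes were called, each time in the same direction. How often other gene pairs do so was not tested. APEX1 lies 86 bases from OSGEP, which encodes a tRNA-modifying enzyme and is transcribed the other way, and their RefSeq starts are 414 bases apart. OSGEP stood at 13.46, 12.66 and 13.15 TPM in the WT libraries and at 19.12, 19.59 and 20.60 in the CSE libraries. The OSGEP groups did not overlap (log2 change 0.56 ± 0.056 SE, adjusted p = 4.02e-08 by limma). APEX1 and OSGEP thus rose by 0.54 and 0.56 on the log2 scale, while OSGEP is far less abundant. The annotated spans of APEX1 and OSGEP do not overlap. Exons of other genes on the opposite strand cover 2.86% of the exonic bases of APEX1 and 2.86% of those of OSGEP. Reads counted without strand could not be told apart from those other genes there.

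The other 2 pairs were CETN2 with NSDHL, a cholesterol synthesis gene 190 bases away (log2 change 0.16, adjusted p = 0.0162 by limma), and PMS2 with AIMP2, a scaffold of tRNA synthetases 120 bases away (log2 change -0.31, adjusted p = 1.38e-05 by limma). Close spacing did not always go with like changes. APTX, not called, lies 43 bases from the co-chaperone gene DNAJA1, which fell from 197 ± 3.98 to 153 ± 3.81 TPM (log2 change -0.36, adjusted p = 9.21e-08 by limma). ERCC8 (-0.11, not called) lies 56 bases from NDUFAF2, a respiratory complex I assembly gene that was called higher (log2 change 0.12, adjusted p = 0.0245 by limma).

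**Figure D4:**
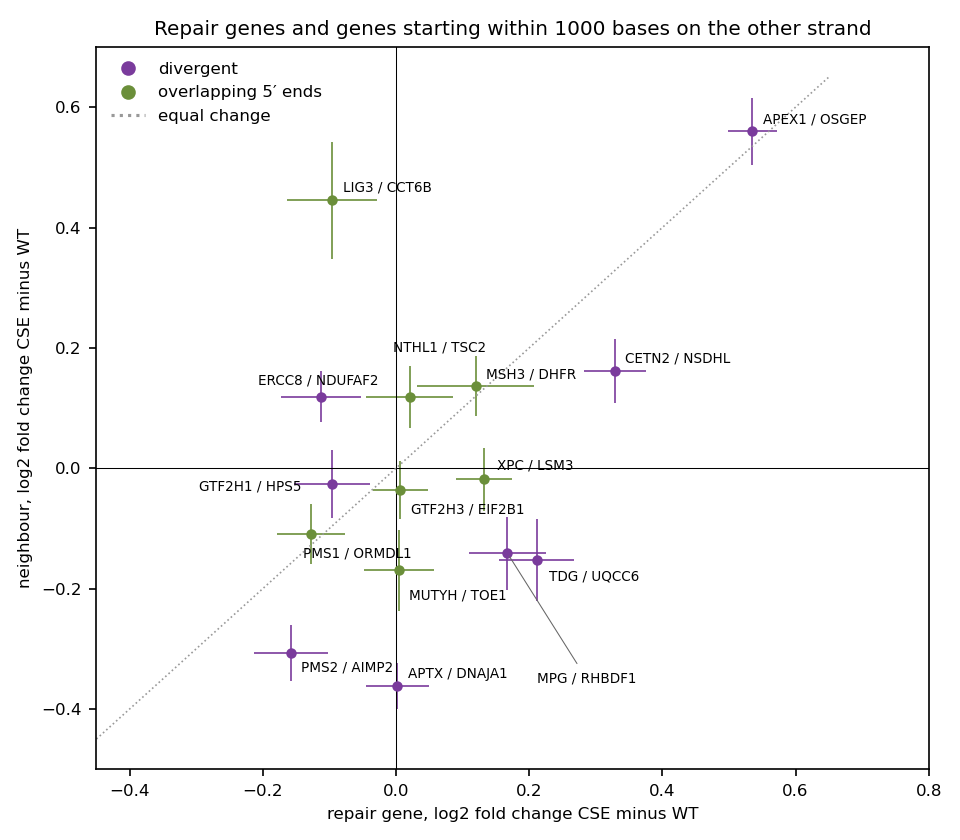
Log2 change, CSE minus WT, of 15 repair genes (horizontal) and of the gene starting within 1000 bases on the other strand (vertical), with standard errors and the line of equal change. APEX1 with OSGEP lies at the upper right (0.54 and 0.56), and APTX with DNAJA1 far from the line (0.0018 and -0.36).

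Partners of the 4 pathways were taken from further lists. Counts are given for 3 of the 4 lists. In base excision, 6 of 15 were higher and 2 lower (53.3% called), close to the 50.1% of all genes tested. HMGB1, an abundant chromatin protein that bends DNA, rose (log2 change 0.49), as did NUDT1, which clears 8-oxo-dGTP from the nucleotide pool (0.47, from 18.9 ± 1.34 to 26.5 ± 0.925 TPM), the ligase gene LIG1 (0.28) and the polymerase gene POLL (0.26). APEX2 fell (-0.37).

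Among nucleotide excision partners, for which no count is given, the ubiquitin ligase scaffold gene CUL4B (log2 change 0.30), STK19 (0.21), the single-strand binding protein gene RPA1 (0.15) and the TFIIH cyclin gene CCNH (0.13) rose. In mismatch repair and resynthesis, 2 of 15 were higher and 5 lower (46.7% called), close to the 50.1% of all genes tested. The replicative polymerase subunit genes POLE4 (log2 change -0.31), POLD3 (-0.25) and POLD1 (-0.16) fell, as did PCNA, the sliding clamp (-0.26, from 241 ± 4.38 to 202 ± 4.94 TPM), while POLD4 rose (0.15, adjusted p = 0.0498 by limma). Of the 5 direct reversal partners, ASCC1, of the helicase complex that works with ALKBH3, was higher (log2 change 0.15) and 4 were not called. The share called in that list was 20%, against 50.1% of all genes tested.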

How the data were processed

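Messenger RNA levels of 6 HCT116 samples, 3 WT and 3 CSE, were grouped by their titles, which match the treatment labels. The authors deposited 1 table of TPM for 20263 genes with 1 column per sample, and 0 sample columns were left unmapped. Per the submitters' processing notes, FastQC (0.11.2), HISAT2 (2.0), Trimmomatic (0.36), bedtools (2.26.0) and GRCh38 were involved, with no roles stated. The counting program, annotation and strandedness: not given in the sources used here. TPM keeps no depth, so no counting interval was computed.

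Symbols were matched for 20148 genes, and positions were taken from GENCODE 29 (GRCh38). The 12793 genes that reached 1 TPM in 3 or more libraries were transformed to log2(TPM + 1), which understates changes of low genes. CSE was compared with WT in limma 3.58.1 (R 4.3.3) with a mean-variance trend and Benjamini-Hochberg adjustment at 0.05. The procedure was tested on simulated data. Whether replicates are separate cultures is not stated, and if they are not, the p-values measure technical spread alone.

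The members and lists were chosen with earlier results of these data known. Values per library are given for called genes with a log2 change of at least 0.2 in size, all direct reversal genes and the 3 largest changes in mismatch repair. Partner genes named are up to 5 called genes per list with the largest change. A called gene of the nucleotide excision partner list is not reported here, so no count over that list is given. E2F1 and RRM2 were named, and the pairs, neighbours and motifs chosen, after values were seen. Of the 42 genes, 20 share some annotated exonic bases with the opposite strand, up to 30.5%, and 11 share over 10%, among them XPC, ERCC4, MPG, XRCC1 and MSH6 of the called genes. Promoter windows were found for 40 of the 42 genes, at the most upstream RefSeq start.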

Additional observations from a re-analysis of the deposited data

How the results depend on the processing

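The alternatives changed the pseudocount, the filter (none, or a mean of 5 TPM), the scaling (median of ratios, quantile, mitochondrially encoded genes removed), the variance trend, the prior and the tested fold (1.2), added a replicate block, or left out each library. Of the 19 called repair genes, 12 stayed called in all 15 alternatives tested against no change, 7 lost the call in at least 1, and 0 changed direction. Of the 23 not called, 10 passed in at least 1 of them and 13 in none; 7 of the 23 changed sign somewhere without being called. With mitochondrially encoded genes left out, 16 of 42 repair genes and 4548 of 13096 of all genes were lower. Against a 1.2-fold change, 2 repair genes passed (2 higher, 0 lower), and 891 of all genes (431 higher, 460 lower).

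Leaving out 1 library gave 15 to 20 called repair genes, with 8 to 11 higher and 6 to 9 lower; the 6 came without WT replicate 1. Over all genes it gave 5408 to 6558 calls, with 2525 to 3518 higher and 2557 to 3210 lower. With the replicate number as a block, 19 repair genes (9 higher, 10 lower) and 6537 of all genes were called. Deviations of same-numbered libraries correlated at -0.071, 0.015 and -0.088, so the numbers were not taken to pair the samples. Since depth is unknown, how far counting error limits the low genes ERCC5 and MSH3 cannot be given.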
